A study of Mus musculus with 2 samples.

Results

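The genes described here encode 10 mouse enzymes that write or erase amino acid side chains on tubulin. They were chosen by a list of Ttll and Agbl genes with earlier results of these libraries in view, since Ttll8 was among the genes raised in the traced library. The difference of Ttll8 between the libraries is therefore a description and carries no test, and so are the values of the other members from the same contrast. The members were 10 of 24071 genes with at least 1 UMI (unique molecular identifier, the tag of 1 captured RNA molecule) in either library, and all 10 had UMIs in both. The list was named for glutamylases and deglutamylases. By their known functions 5 members are glutamylases (Ttll1, Ttll5, Ttll6, Ttll7 and Ttll9), 2 are deglutamylases (Agbl2 and Agbl4) and 3 are glycylases (Ttll3, Ttll8 and Ttll10), so the name does not cover the last group.

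Tubulin carries flexible tails at the outer face of the microtubule. Enzymes of the tubulin tyrosine ligase-like family (TTLL) attach side chains of glutamate or glycine to these tails, and cytosolic carboxypeptidases (the Agbl genes) trim the glutamate again. Both kinds of chain are dense on the axonemes of motile cilia, where they bear on dynein motion and on the stability of the cilium. Ependymal cells are the ciliated cells that line the ventricles and the central canal, and endothelial cells of vessels lack motile cilia.

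The libraries were made from spinal cords of adult C57BL/6j mice, 10 to 12 weeks of age. All animals were Clec9a cre/cre R26 LSLtdTomato/LSLtdTomato, so both libraries came from animals homozygous for Cre in Clec9a, which encodes DNGR-1, and for the tdTomato reporter in Rosa26. Cre was driven by the Clec9a locus itself, and the reporter marks cells with present or past activity of that locus together with their descendants. Dissociated cells were depleted of myelin and sorted as live CD45- CD133+ cells that were traced (tdTomato-positive) or non-traced, giving 1 library of each kind. The number of animals behind each library is not given in the sources used here, and neither library has a replicate. No p-value could be computed, and every interval below is a 95% interval for counting error only, which covers neither animals nor sorts.

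There were 25411 non-traced cells (median depth 7218 UMIs) and 4825 traced cells (median depth 8566 UMIs). Cells were clustered without the reporter, the members or any other Ttll or Agbl gene, and were called ependymal-like or endothelial-like from 10 and 8 marker genes. The ependymal-like class held 4712 traced cells (97.7% of the library, interval 97.2 to 98.1) and 1161 non-traced cells (4.57%, interval 4.32 to 4.83). The endothelial-like class held 17584 non-traced cells and 37 traced cells. Droplets in which both classes' markers were common were kept out of both classes (714 droplets of the non-traced library). A further class, 3454 non-traced cells led by Gkn3 with all 8 endothelial markers, stayed unnamed because a marker of another class was among its leading genes. Class names were rebuilt here and may differ from those of the study. The marker Foxj1, the transcription factor of motile ciliogenesis, had an ependymal-like level of 511 CPM (counts per 1000000 UMIs) without and 474 CPM with tracing, and an endothelial-like level of 1.22 CPM in the non-traced library. For the reporter row WPRE-tdTomato the ependymal-like level was 317 CPM (traced) against 72.9 CPM (non-traced), and 64.6 CPM was found in non-traced endothelial-like cells. Clec9a itself had 31 UMIs in the 4712 traced and 0 in the 1161 non-traced ependymal-like cells. The study treats animals of this genotype as Clec9a-deficient. In a separate experiment it did not appreciably detect Clec9a in traced spinal cord cells. Counts this low, over classes of unlike size, were not read as a difference or as present expression of Clec9a. The libraries shared 42 barcodes, of which 1 was ependymal-like in both.

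Several measures moved with the library beside the sort, and their part in the differences below was not tested. All 8 endothelial markers were found in the ependymal-like cells of both libraries, summing to 393 CPM there without tracing and to 50.1 CPM with it, where the endothelial-like class of the non-traced library had 22793 CPM. At least 2 of the 4 vascular genes Cldn5, Flt1, Pecam1 and Ly6c1 were found in 486 of 1161 non-traced ependymal-like cells and in 7 of 4712 traced ones. The median depth of ependymal-like cells was 7062 UMIs in the non-traced and 8589 UMIs in the traced library. Gm42418, a row that overlaps ribosomal RNA, took up 13112 CPM of the non-traced ependymal-like UMIs and 33303 CPM of the traced ones. The median mitochondrial share was 5.81% and 3.98%. The clusters that made up the class also differed. Of the non-traced ependymal-like cells 791 fell in a cluster led by Chchd10 that held 2 traced cells, and 370 in a cluster led by Ucma that held 191 traced cells, while the largest traced parts were led by Nap1l5, Pcp4 and Gm42418 (1330, 1142 and 881 cells).

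The members other than Ttll7 were higher in ependymal-like than in endothelial-like cells of the same non-traced library, and Ttll7 was lower (the plot of member levels).

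**Figure D1:**
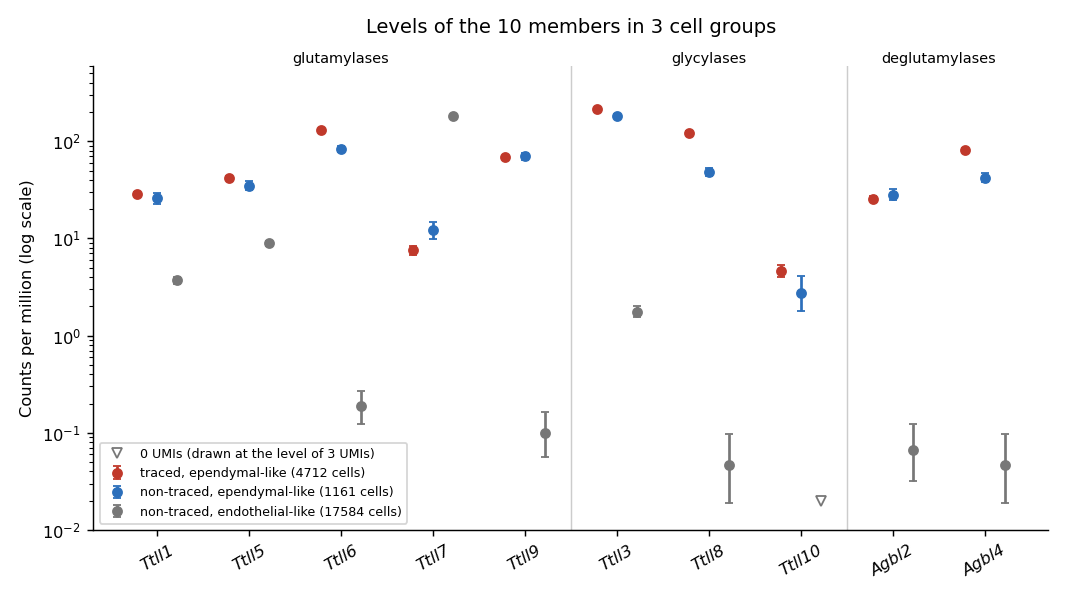
Levels of each member (CPM, log axis) in 3 cell groups: ependymal-like traced, ependymal-like non-traced and endothelial-like non-traced. Points are summed counts of 1 library, bars are exact 95% Poisson intervals, and the open triangle marks a sum of 0. Ttll7 is the member whose endothelial-like point (180.3 CPM) lies above its ependymal-like points (12.1 and 7.56 CPM).

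Among the glycylases, Ttll3 attaches the first glycine of a chain. Its ependymal-like level was 215 CPM (interval 211 to 219) with tracing and 183 CPM (174 to 192) without, and its endothelial-like level was 1.77 CPM (1.56 to 1.99). Ttll8, the other enzyme that starts glycine chains, had ependymal-like levels of 123 CPM (119.9 to 126) with tracing and 48.2 CPM (43.7 to 53.0) without. Its endothelial-like level was 0.0467 CPM (0.0188 to 0.0962), from 7 UMIs over 17584 cells. The intervals of the 3 groups did not overlap for either gene. Ttll10, which elongates glycine chains, had few UMIs everywhere: 211 in the traced (4.61 CPM) and 24 in the non-traced (2.77 CPM) ependymal-like class. The endothelial-like class had 0 UMIs, where a floor of 3 UMIs would be 0.0200 CPM and the exact upper limit is 0.0246 CPM.

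Among the glutamylases, Ttll6 lengthens glutamate chains, mainly on alpha-tubulin. Its ependymal-like levels were 131 CPM (interval 128 to 135) with tracing and 83.6 CPM (77.6 to 89.9) without, beside an endothelial-like level of 0.187 CPM (0.124 to 0.270). Ttll9, a glutamylase of motile axonemes, stood at 68.5 CPM (66.1 to 70.9) and 70.03 CPM (64.6 to 75.8) in the traced and non-traced ependymal-like cells, whose intervals overlapped, and at 0.10 CPM in endothelial-like cells. Ttll1, the catalytic subunit of a polyglutamylase complex, and Ttll5 were the members with a clear endothelial level beside a higher ependymal one. Ttll1 had ependymal-like levels of 28.8 CPM (traced) and 25.8 CPM (non-traced) and an endothelial-like level of 3.69 CPM (3.39 to 4.01). Ttll5 was at 41.98, 35.0 and 8.89 CPM (8.42 to 9.38) in the same order.

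Ttll7, a glutamylase that prefers beta-tubulin, went the other way. Its endothelial-like level was 180.3 CPM (interval 178 to 182, 27045 UMIs), and its ependymal-like levels were 12.1 CPM (9.92 to 14.7) without tracing and 7.56 CPM (6.78 to 8.397) with it. The 3 intervals did not overlap. The level was high in each of the 8 endothelial-like cluster parts of at least 50 cells, from 117 CPM in the part led by Fbln5 to 211 CPM in the part led by mt-Ts2, with a median of 169 CPM. In the 37 endothelial-like cells of the traced library it was 219.6 CPM, from 74 UMIs. The ependymal-like level of Ttll7 was 6.73% of the endothelial-like level in the non-traced library, while the 8 endothelial markers stood at 1.25% to 5.54% (median 1.71%) of theirs in the same cells. In traced ependymal-like cells Ttll7 was at 4.19% of the non-traced endothelial-like level and the markers at 0.0881% to 4.42% (median 0.146%).

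The deglutamylases followed the ciliary pattern. Agbl2 (CCP2), which shortens glutamate chains, had ependymal-like levels of 25.8 CPM (interval 24.3 to 27.3) with tracing and 28.3 CPM (24.9 to 32.1) without, and an endothelial-like level of 0.0667 CPM. For Agbl4 (CCP6) these levels were 81.6 CPM (79.0 to 84.3), 42.3 CPM (38.1 to 46.9) and 0.0467 CPM. The ependymal-like intervals overlapped between libraries for Agbl2 and lay apart for Agbl4.

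The promoter is shown for the member raised most in the traced library, the member next to it, and the member whose level was higher in endothelial-like cells. Promoters of ciliary genes often carry an X-box, a site of RFX factors in which a short motif occurs as a facing pair. Each sequence is the 250 bases before the start site from RefSeq (GRCm38.p6), 5′ to 3′ on the strand of the gene, and capitals mark a match. The letters GTTGCC (a single X-box motif) and TGTTTAC (a forkhead site, as bound by Foxj1) were searched on both strands, and so was GTTGCC facing GTTGC with at most 4 bases between them, a form chosen after the Ttll8 promoter had been seen and one that overlaps the single motif. Entries were found for 9 of the 10 members, Ttll1 not among them.
Ttll8 (chr15:88954419-88954668, minus strand): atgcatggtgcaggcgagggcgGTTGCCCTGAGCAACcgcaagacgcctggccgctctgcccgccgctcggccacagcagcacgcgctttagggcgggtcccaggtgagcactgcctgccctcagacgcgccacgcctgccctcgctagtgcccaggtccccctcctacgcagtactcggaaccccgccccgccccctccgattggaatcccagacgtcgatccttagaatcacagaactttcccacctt
Agbl4 (chr4:110397448-110397697, plus strand): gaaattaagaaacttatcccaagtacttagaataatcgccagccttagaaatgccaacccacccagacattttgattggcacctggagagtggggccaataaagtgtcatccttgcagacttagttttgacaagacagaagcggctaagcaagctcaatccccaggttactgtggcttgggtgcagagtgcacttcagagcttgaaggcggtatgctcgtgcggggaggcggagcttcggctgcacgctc
Ttll7 (chr3:146852117-146852366, plus strand): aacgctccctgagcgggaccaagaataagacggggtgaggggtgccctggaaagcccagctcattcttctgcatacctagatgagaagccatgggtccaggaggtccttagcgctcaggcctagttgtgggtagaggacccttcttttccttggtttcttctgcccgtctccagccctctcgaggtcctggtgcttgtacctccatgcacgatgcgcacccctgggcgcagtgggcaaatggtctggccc

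The Ttll8 window held the facing pair GTTGCCCTGAGCAAC, starting at position -228 from the start site. Such a pair occurred in 95 of 32851 promoters of this length (0.289%), and no other member's window held one. The motif GTTGCC occurred in 10.4% of all promoters, and among the members in windows of Ttll3, Ttll5, Ttll8, Ttll9, Ttll10 and Agbl2. The forkhead letters occurred in 3.17% of all promoters and in the window of Ttll10. The Agbl4, Ttll6 and Ttll7 windows held none of the 3. A match is a description of letters and does not show that a factor binds there, and the absence of a match says only that these letters are not in this window.

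A difference was called where log2(CPM + 1) differed by at least 1. Within the non-traced library 9 of the 10 members were called higher in ependymal-like cells, beside 20.8% of all 23163 genes with a UMI in either class, and 1 (Ttll7) was called lower, beside 11.5% of all genes. The median difference over the members was 5.08 on the log2 scale, against 0.0937 over all genes tested. On the CPM scale Ttll3 was 104-fold (interval 90.8 to 118), Ttll6 448-fold (307 to 678), Ttll9 700.2-fold (421 to 1259), Ttll8 1032-fold (497 to 2584), Agbl4 906-fold (435 to 2270) and Agbl2 425-fold (227 to 897) higher in ependymal-like cells. Ttll1 was 6.98-fold (5.95 to 8.16) and Ttll5 3.94-fold (3.47 to 4.47) higher. Ttll10 was at least 139-fold higher when its 24 ependymal-like UMIs were set against a floor of 3 UMIs over the endothelial-like class, and the exact lower limit of the ratio, which counts the error of both sums, was 104-fold. With Ttll10 at 139-fold the median ratio over the members was 282. Ttll7 was 14.9-fold (12.3 to 18.2) lower. The classes were drawn from clusters of the same cells, so these ratios describe the classes and test nothing.

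Droplet libraries hold some free RNA, so the endothelial-like levels of the members were set beside those of 39 motile cilia genes, which endothelial cells should lack. In endothelial-like cells these 39 genes stood at 0.0680% to 2.86% of their ependymal-like level, with a median of 0.167%. Ttll8 (0.0969%), Agbl4 (0.110%), Ttll9 (0.143%), Ttll6 (0.223%), Agbl2 (0.235%) and Ttll3 (0.966%) lay inside this range, and Ttll10 was at 0. The endothelial-like levels of these 7 members were read as background. Ttll1 (14.3%, interval 12.2 to 16.8) and Ttll5 (25.4%, interval 22.4 to 28.9) lay above all 39 genes, and Ttll7 stood at 1486%.

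**Figure D2:**
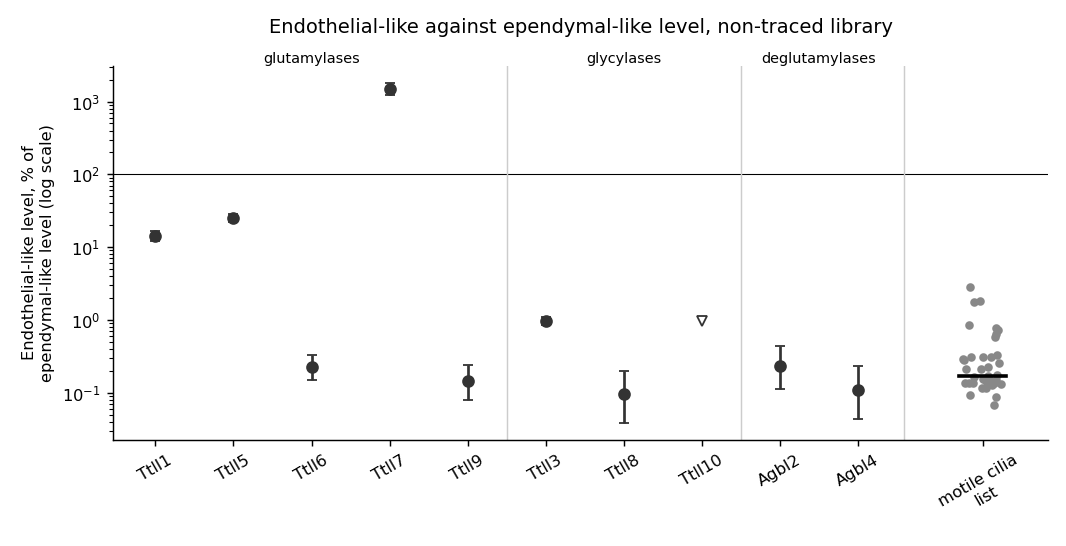
Endothelial-like level as a percentage of the ependymal-like level (log axis) for each member and for 39 motile cilia genes in the non-traced library. Bars are exact 95% intervals of the ratio, the triangle is the upper limit for Ttll10, the thick line is the median of the cilia genes (0.167%) and the horizontal line marks equal levels. Ttll1, Ttll5 and Ttll7 lie above every cilia gene.

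The same contrast in the traced library rested on 37 endothelial-like cells, in which the 10 ependymal markers summed to 1323 CPM against 18.2 CPM in the non-traced endothelial-like cells. There the cilia genes stood at a median of 17.6% of their ependymal-like level and the members other than Ttll7 and Ttll10 at 4.82% (Ttll8, 2 UMIs) to 51.6% (Ttll1, 5 UMIs). Ttll7 was 29.1-fold (interval 22.3 to 37.4) higher in the endothelial-like cells, and this was the direction of the non-traced library.

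Between the ependymal-like cells of the libraries, 1 of 10 members was called higher in the traced library, beside 0.557% of all 21355 genes with a UMI in either, and 0 were called lower, beside 1.99% of all genes. The called member was Ttll8, by which the list was chosen, and nothing is read from the share. Ttll8 was 2.55-fold higher (interval 2.31 to 2.83), a log2 difference of 1.33, and held rank 21 of 11296 genes that reached 5 CPM in at least 1 of the libraries. The member just outside the threshold was Agbl4, 1.93-fold higher (1.73 to 2.15) with a log2 difference of 0.93 and a rank of 119. Ttll6 followed with 1.57-fold (1.45 to 1.70) and a rank of 462. Ttll10 was 1.66-fold higher with a wide interval (1.09 to 2.65), since the non-traced value rested on 24 UMIs.

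The remaining members had ratios nearer to 1. The ratio was 1.20 (interval 1.06 to 1.36) for Ttll5 and 1.18 (1.11 to 1.24) for Ttll3. It was 1.12 (0.968 to 1.29) for Ttll1, 0.978 (0.896 to 1.07) for Ttll9 and 0.910 (0.792 to 1.05) for Agbl2, so that for these 3 genes a difference over the whole class was not detectable at this depth. Ttll7 was lower in the traced library, with a ratio of 0.623 (0.499 to 0.782). The median log2 difference was 0.24 over the 10 members, -0.0085 over all genes tested and 0.36 over the 39 motile cilia genes, of which none was called in either direction.

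**Figure D3:**
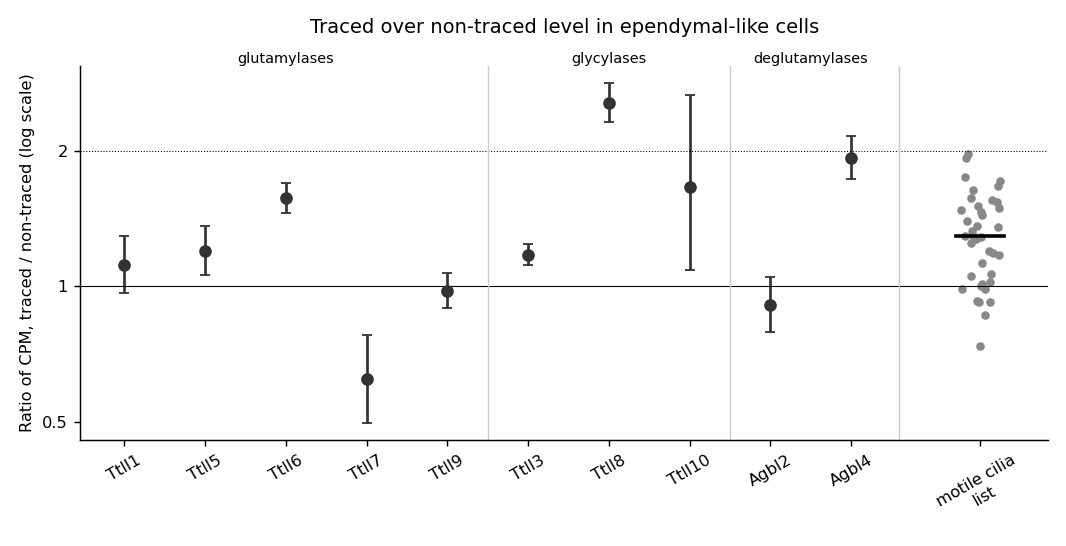
Ratio of the traced to the non-traced level in ependymal-like cells (log axis) for each member, with exact 95% intervals, beside 39 motile cilia genes as single points with their median ratio (thick line, at a median log2 difference of 0.36). The solid line marks a ratio of 1 and the dotted line a ratio of 2. Ttll8, which was chosen by this contrast, lies above every cilia gene, the highest of which was Cfap46 at 1.96.

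Set beside the motile cilia genes, the log2 difference of Ttll8 was above that of all 39. Ttll8 was chosen by this contrast, so its place among them is a description. The log2 difference of Agbl4 was below that of Cfap46 (1.96-fold) and Dnah11 (1.92-fold) alone. Relative to the median of the cilia list the difference of Ttll8 was 0.97 on the log2 scale, below the threshold. Leaving out the ependymal-like cells with at least 2 vascular genes gave ratios of 2.82 for Ttll8, 2.07 for Agbl4, 1.64 for Ttll6 and 0.654 for Ttll7, so that Agbl4 was then called as well. Calling cells ependymal-like by a count of markers alone (365 non-traced cells) gave 2.75 for Ttll8 and 2.44 for Agbl4.

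The direction of the differences was then read within clusters, since the libraries held different mixtures. Without integration 4 ependymal-like clusters held at least 50 cells of each library, led by Gm42418 (347 non-traced and 1964 traced cells), Junb (322 and 1620), Sntn (91 and 891) and Ucma (385 and 209). Ttll8 stood at 126, 121, 126 and 135 CPM in the traced parts and at 44.6, 42.01, 63.3 and 52.9 CPM in the non-traced parts, in that order. The lowest traced value was above the highest non-traced value, and the ratios were 2.82 (interval 2.33 to 3.45), 2.87 (2.35 to 3.55), 1.99 (1.501 to 2.68) and 2.55 (2.08 to 3.13).

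Agbl4 stood at 82.8, 76.0, 88.1 and 97.7 CPM in the traced and 43.8, 35.4, 44.7 and 46.1 CPM in the non-traced parts, again with no overlap and with ratios of 1.89 to 2.15. Ttll6 showed ratios of 1.38 to 1.60 and Ttll3 of 1.16 to 1.45, with all 4 intervals above 1 for both genes. For Ttll6 the traced parts lay above all non-traced parts, while the traced and non-traced values of Ttll3 overlapped across clusters. Ttll9 (0.863 to 0.943) and Agbl2 (0.828 to 0.986) had ratios under 1 in all 4 clusters with every interval reaching 1, and Ttll7 (0.594 to 0.867) had an interval wholly below 1 in 1 of them. Ttll5 (1.04 to 1.68) and Ttll10 (1.36 to 2.34) had ratios above 1 in all 4 clusters, with an interval wholly above 1 in 1 and 0 of them, and Ttll1 ranged from 0.857 to 1.45. The interval of Ttll1 was wholly above 1 in 2 clusters, those led by Junb (1.35, interval 1.02 to 1.82) and Ucma (1.45, lower limit 1.001), and below 1 in none. Over the 39 cilia genes the median ratio was 1.26, 1.27, 1.20 and 1.34 in the same clusters. With the 4 clusters taken in the traced proportions in both libraries, an alternative added after seeing the data, the log2 difference of Ttll8 was 1.37.

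**Figure D4:**
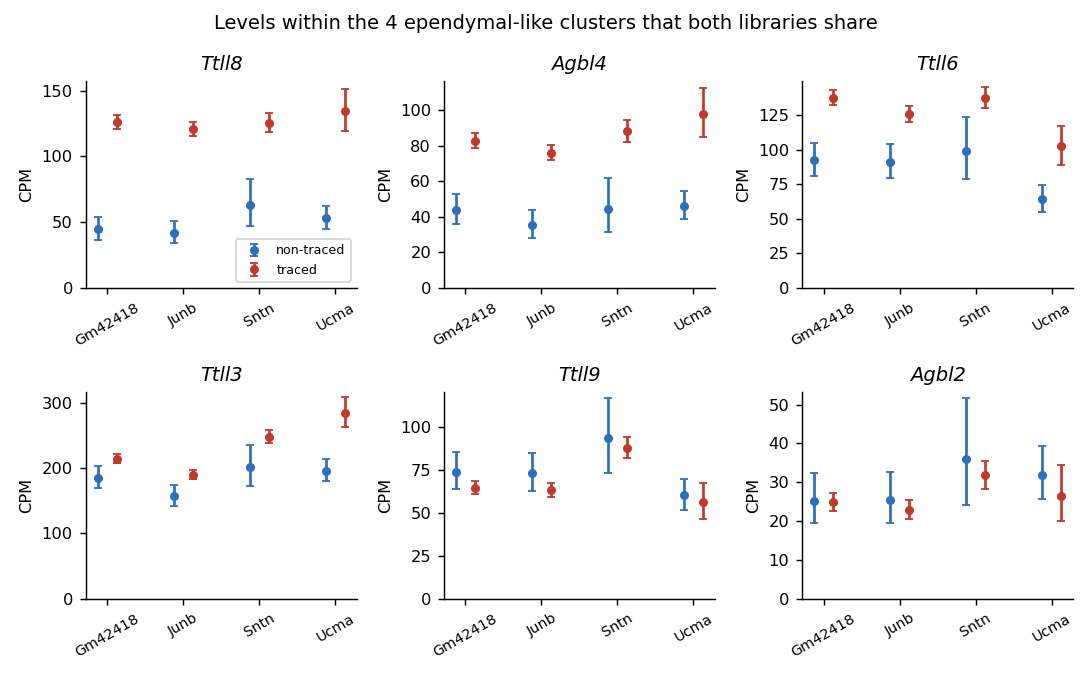
Levels (CPM, linear axes from 0) of Ttll8, Agbl4, Ttll6, Ttll3, Ttll9 and Agbl2 in the 4 ependymal-like clusters that both libraries share, each named by its leading gene. Points are summed counts of 1 library in 1 cluster and bars are exact 95% Poisson intervals. Traced and non-traced points are apart in every cluster for Ttll8 and Agbl4, and close for Ttll9 and Agbl2.

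Clustered within each library alone, the level of Ttll8 varied 1.28-fold between the lowest and the highest non-traced sub-cluster and 1.66-fold between the traced ones. With finer sub-clusters these ranges were 2.03-fold and 1.79-fold. The traced library gave 5 sub-clusters of at least 50 cells, led by Gm42418, Socs3, Sntn, Ucma and Mki67. Ttll8 stood at 128, 122, 121 and 128 CPM in the first 4 and at 77.2 CPM (interval 63.2 to 93.4) in the 106 cells led by Mki67, a proliferation gene. Agbl4 was lowest in the same sub-cluster (56.1 CPM, against 77.0 to 98.1 CPM) and Ttll3 as well (152 CPM, against 193 to 279 CPM). In that sub-cluster the 4 vascular genes summed to 595 CPM, against 0.555 to 1.75 CPM in the others, and the median of the cilia genes was 215 CPM against 258 to 335 CPM. The part of these measures in the lower levels was not tested. In 77 cycling traced cells of a cluster made without integration Ttll8 stood at 69.9 CPM (55.1 to 87.5).

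In the non-traced library the 4 sub-clusters of at least 50 cells, led by Mki67, Ucma, Btg2 and Sntn, had Ttll8 levels of 51.9, 48.7, 41.6 and 53.4 CPM, and their intervals overlapped. With the finer sub-clusters the non-traced part led by Hells (33.1 CPM, interval 24.1 to 44.5) and the part led by Lin7a (67.4 CPM, interval 54.9 to 81.8) lay apart for Ttll8. The sub-cluster led by Ucma had the lowest Ttll6 level in the traced library at both resolutions (100.4 and 101.5 CPM). In the non-traced library it was lowest at the coarser one (61.9 CPM), while at the finer one the part led by Mki67 (60.8 CPM, interval 45.7 to 79.3) was below it (64.3 CPM, interval 53.4 to 76.9), with overlapping intervals. The traced sub-cluster led by Ucma also had the highest Ttll3 level (279 CPM, interval 257 to 302). In the non-traced library its Ttll3 level was 197 CPM (180.2 to 214) at the coarser and 211 CPM (191 to 233) at the finer resolution, and the intervals overlapped those of the sub-cluster led by Sntn. At the coarser resolution Ttll9 was highest in the sub-cluster led by Sntn, at 88.6 CPM (interval 68.8 to 112) without and 87.0 CPM (81.0 to 93.3) with tracing. The non-traced interval overlapped those of the other non-traced sub-clusters, and the traced one lay above the others. The median of the cilia genes was also highest in this sub-cluster, at 262 CPM (non-traced) and 335 CPM (traced).

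Shares of cells with a UMI were compared at a depth that was equal in all cells. With every cell thinned to 1000 UMIs, the share of ependymal-like cells with Ttll8 was 11.4% (interval 10.5 to 12.3) when traced and 4.31% (3.21 to 5.64) when not, and the endothelial-like share was 0.0114%. Agbl4 was found in 8.15% (7.38 to 8.97), 4.82% (3.66 to 6.22) and 0.00569%. Ttll3 was found in 19.6%, 14.6% and 0.188%, and Ttll6 in 11.9%, 7.58% and 0.0114%. The intervals of the libraries lay apart for these 4 genes. They overlapped for Ttll9 (6.85% and 6.55%), Ttll5 (3.97% and 3.62%), Ttll1 (3.06% and 2.58%) and Agbl2 (2.48% and 3.10%). Ttll10 was found in 0.361% of traced cells (interval 0.210 to 0.577) and in 0 of 1161 non-traced cells (upper limit 0.317%), so these intervals overlapped as well. Without thinning it was found in 198 of 4712 traced and 22 of 1161 non-traced cells. Ttll7 was found in 16.0% of endothelial-like cells and in 0.531% of traced and 0.775% of non-traced ependymal-like cells. Without thinning, Ttll8 was found in 64.3% of traced and 27.7% of non-traced ependymal-like cells, and Ttll3 in 80.7% and 69.9%.

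**Figure D5:**
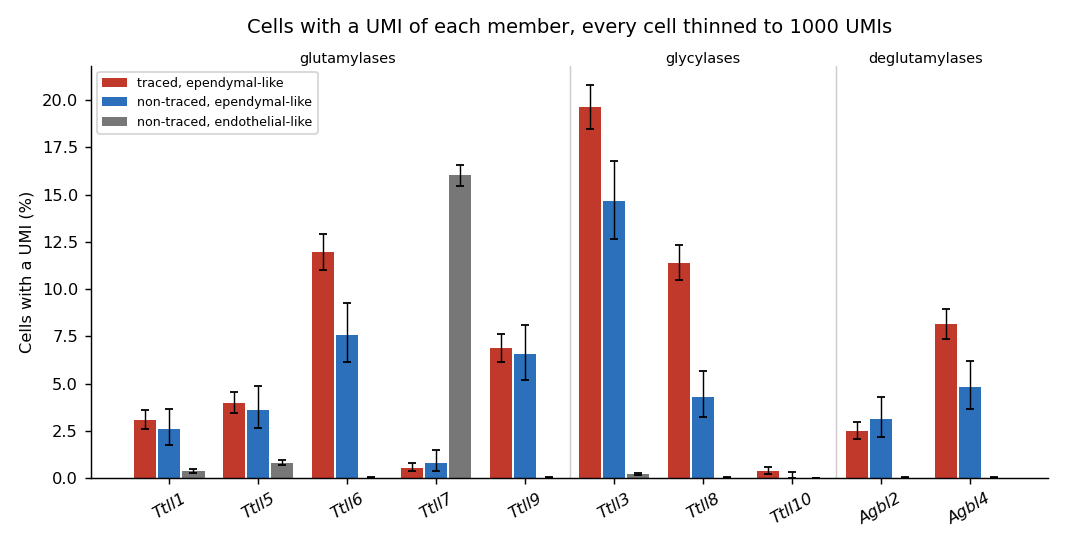
Share of cells (%) with at least 1 UMI of each member after thinning every cell to 1000 UMIs, in ependymal-like cells of both libraries and in non-traced endothelial-like cells. Bars start at 0 and error bars are exact 95% Clopper-Pearson intervals over cells of 1 library. The traced bar is above the non-traced bar beyond the intervals for Ttll3, Ttll6, Ttll8 and Agbl4.

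Without thinning a traced ependymal-like cell showed a median of 4 of the 10 members and a non-traced one a median of 3, and 35.1% and 11.5% of these cells showed at least 5. Both initiating glycylases, Ttll3 and Ttll8, were found in 53.5% of traced cells (2523 of 4712) and in 21.8% of non-traced cells (253 of 1161). Ttll3 without Ttll8 was found in 27.2% of traced and 48.1% of non-traced cells. These shares rise with depth, which was higher in the traced library. The summed level was alike at both depths in the traced library, where Ttll8 stood at 123 CPM in cells at or under the median depth and at 122.9 CPM in deeper cells. In the non-traced library it was 40.8 CPM (interval 34.0 to 48.5) in the shallower and 52.5 CPM (46.6 to 58.9) in the deeper cells. These intervals overlapped at their ends, which does not show that the levels were equal. Both values were under the traced ones.

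The genes whose level followed Ttll8 most closely over 25 library parts of clusters were Ect2l (Pearson's r 0.998), Jhy (0.997), Dcdc5 (0.996), Ift88 (0.996) and Fancd2os (0.995), among 13000 genes of at least 10 CPM in 1 part. Ift88 is a subunit of the intraflagellar transport machinery that builds cilia. Of these 5 genes Ect2l had the traced to non-traced ratio nearest that of Ttll8 (2.57, from 18.7 to 48.1 CPM), and the other 4 had ratios of 1.36 to 1.71. For Ttll3, the member with the most UMIs in ependymal-like cells, the closest genes were Lrrc73 (0.991), Wdr34 (0.990), Arhgap39 (0.988), Gm867 (0.988) and Srcin1 (0.987), with ratios of 0.820 to 1.08. Wdr34 is a component of the dynein that carries cargo back along the cilium. The parts share libraries and depth and split into ependymal and other cells, so the correlations are descriptions.

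The rest of the modification machinery, listed with earlier results known, was not called in either direction between the libraries: 7 other writers and erasers, 4 partners of TTLL1, 4 enzymes of tyrosine removal and addition, 3 of acetylation, 12 tubulins, 7 severing enzymes and 3 ciliary adaptors. Over all genes 0.557% were called higher and 1.99% lower, so the lack of calls says little about these lists. The other writers and erasers had a median log2 difference of 0.20. The deglutamylase Agbl3 had levels of 96.6 CPM with and 79.2 CPM without tracing and the glutamylase Ttll4 at 38.3 and 33.6 CPM. Of the TTLL1 partners, Lrrc49 stood at 73.2 and 53.2 CPM (ratio 1.38, interval 1.25 to 1.52) and Tpgs2 at 62.8 and 57.8 CPM. Tubulins had a median log2 difference of -0.16, with the axonemal Tubb4b at 981 and 1096 CPM (ratio 0.896) and Tuba1a at 2243 and 2489 CPM (ratio 0.901).

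Between cell classes of the non-traced library the counts for these lists stand beside 20.8% of all genes called higher and 11.5% called lower. Among genes at 5 CPM or more in either class these shares were 29% and 18.8%. For the tubulins, the TTLL1 partners and the acetylation enzymes the share called higher was near these values, so these counts say little about the lists. The other lists are short as well, so their counts are descriptions. Among other writers and erasers 5 of 7 were called higher in ependymal-like cells and none lower, with Agbl3 11.3-fold (interval 10.2 to 12.4) and Ttll4 4.96-fold (4.34 to 5.66) higher. Of the TTLL1 partners 1 of 4 was called higher, and the Lrrc49 level was 53.2 CPM in the ependymal-like and 94.0 CPM in the endothelial-like class, while Ttll1 itself was 6.98-fold higher in ependymal-like cells. Of the tubulins 2 of 12 were called higher, Tubb4b (3.71-fold) and Tuba1a (3.37-fold), and 4 were called lower. The severing enzymes split into 3 called higher and 1 lower of 7, with Katnal2, a katanin-like protein, 235-fold (161 to 355) higher. Of the ciliary adaptors 2 of 3 were called higher, Cep41 (9.06-fold) and Arl13b, a small GTPase of the ciliary membrane (2.04-fold). Of the tyrosine enzymes 2 of 4 were called higher and 1 lower, with the ligase Ttl 3.76-fold higher and Svbp, the partner of the vasohibins, at 69.7 CPM against 87.3 CPM. Of the acetylation enzymes 1 of 3 was called, the acetyltransferase Atat1 (3.95-fold higher), and the deacetylase Sirt2 stood at 152 CPM against 109.9 CPM. All 39 motile cilia genes were called higher, with a median log2 difference of 7.04.

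The gene models of GENCODE on GRCm38 bear on how far each count is its own. Ttll8 lies on chromosome 15 (positions 88890633 to 88954418, minus strand), as does Ttll1 (83483769 to 83510893, minus strand). Agbl4 lies on chromosome 4 (110397661 to 111664324, plus strand), as does Ttll10 (156034840 to 156059414, minus strand). Ttll3 lies on chromosome 6 (113389260 to 113414587, plus strand) and shares 283 exonic bases with Arpc4 on the same strand, so its count is uncertain by reads that could belong to either gene. Ttll8 shares 263 exonic bases with the same-strand model AC117700.1, a row that the tables do not list, and Ttll9 shares 129 bases with the opposite-strand Gm14199. Ttll9 and Agbl2 (90782727 to 90834437, plus strand) lie on chromosome 2, with Ttll9 at 152962485 to 153008482 on the plus strand. Ttll5 lies on chromosome 12 (85824659 to 86061893, plus strand) and Ttll6 on chromosome 11 (96133786 to 96165451, plus strand). Ttll7 lies on chromosome 3 (146852367 to 146984009, plus strand) and overlaps no other exon.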

How the data were processed

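Per the labels and the methods of the study, sorted cells were captured on the 10x platform (3′ chemistry) and sequenced on an Illumina HiSeq, and the authors made the UMI counts with Cell Ranger 3.0.2 (STAR 2.5.1b) on mm10. The deposited tables hold these counts, unnormalized, per gene and cell barcode, and all barcodes passed a filter of at least 50 genes and at most 10% mitochondrial genes among those detected. No doublet step is named in the sources used here, and doublets were kept, with droplets of mixed markers in classes of their own. Here cells were integrated and clustered with Seurat 5.3.0 in R 4.3.3 (2000 variable genes, of which 1998 were used after leaving out Ttll and Agbl genes and the reporter, 20 components, resolution 0.8). Cluster parts were named from listed markers, and UMIs were summed per library and class as counts per 1000000 UMIs (CPM). Differences are of log2(CPM + 1), called at 1 or more, which understates changes of low genes. With 1 library per group nothing was tested. Intervals are exact Poisson, conditional binomial (ratios) or Clopper-Pearson, at 95%, and cover counting error only. For a summed count of 0 the level of 3 UMIs over the class was given as a floor, with the exact upper limit beside it. TMM factors of edgeR 4.0.16 were an alternative scaling. The summing and calling were tested on simulated data.

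The members and gene lists were chosen with earlier results of these data known. Named genes were all members, the 2 genes with the most UMIs in traced ependymal-like cells of each other list but the motile cilia list, and the 5 genes most like Ttll8 and most like Ttll3 (Pearson's r of log2 values over cluster parts of at least 50 cells). 1 gene that this rule names is not reported here. Cfap46 and Dnah11, and the sequence pair in the Ttll8 promoter, were named after their values were seen.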

Additional observations from a re-analysis of the deposited data

How the results depend on the processing

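The difference of Ttll8 between traced and non-traced ependymal-like cells (log2 1.33) ranged from 0.97 to 1.48 over 13 alternatives. It kept its direction in all of them, 3 of which were chosen after seeing the data. Ttll8 was chosen by this contrast, so the alternatives describe its difference and test nothing. Relative to the median of the motile cilia list the difference of Ttll8 was 0.97, no member was called higher (0 members), and the median over the members was -0.12. The count of members called higher was 2, Agbl4 being the added one, with classes set by a marker count and with cells of 2 or more vascular genes left out. It was also 2 with cells thinned to 1000 UMIs, where Ttll10 was added with 0 non-traced UMIs. The ependymal-like minus endothelial-like median was 7.01 with a pseudocount of 0.1. Relative to the motile cilia list this median was -1.96, with 0 members called higher and 8 lower. On that scale the differences were -4.53 for Ttll1, -5.17 for Ttll5, -0.88 for Ttll6, -1.03 for Ttll9, -0.98 for Ttll3, -1.48 for Ttll8, -5.12 for Ttll10, -2.26 for Agbl2 and -1.67 for Agbl4. These reversals come from the construction, since the list's own median of 7.04 was subtracted. No paired analysis was possible because each group is 1 library. Low counts limit Ttll10, and the spread between animals is unknown.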

Other observations

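Ttll7 was also found in cells of the non-traced library that were not named endothelial-like. Its level was 211.6 CPM in the 3454 unnamed cells led by Gkn3, which carried all 8 endothelial markers. It was 50.9 CPM (interval 35.5 to 70.8) in 168 pericyte-like cells clustered without integration. In 32 fibroblast-like cells it was 30.2 CPM (15.6 to 52.7, 12 UMIs). The 8 endothelial markers summed to 26680 CPM in the cells led by Gkn3 and to 3739 CPM in the fibroblast-like cells. In the endothelial-like class they summed to 22793 CPM. The part of endothelial RNA in these Ttll7 levels was not tested, so expression of Ttll7 by fibroblasts is not shown. In the 714 droplets with ependymal and endothelial markers Ttll7 was at 97.5 CPM, and Ttll8 stood there at 21.0 CPM (18.3 to 23.9). The pericyte-like and fibroblast-like cells had 0 UMIs of Ttll8, which allows levels of up to 4.36 and 7.54 CPM. The pericyte-like cells had 25 UMIs of Ttll3 (36.4 CPM, interval 23.5 to 53.7), which was 19.9% of the non-traced ependymal-like level, where the motile cilia genes had a median of 0.516%. Ttll3 had 0 UMIs in the 32 fibroblast-like cells, again with a floor of 7.54 CPM and an exact upper limit of 9.28 CPM.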
